A study of Mus musculus with 11 samples.

Results

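The 10 genes described here, Tsc22d3, Klf15, Klf9, Zbtb16, Txnip, Pdk4, Fkbp5, Sgk1, Cdkn1a and Errfi1, are known to rise in many tissues when the glucocorticoid receptor is activated. They were found by gene symbol among the 39017 gene identifiers of the count table, and all 10 were present. The list was chosen from results of these same libraries, in which genes of this kind had been seen to differ after gonadectomy. Their levels and fold changes in all 3 comparisons are therefore given as a description, and where the text counts members past the threshold of the fit over all genes, the count describes the choice and is not evidence about the members.

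Glucocorticoids, corticosterone in mice, are steroids released by the adrenal cortex, and they bind the glucocorticoid receptor (Nr3c1) and the mineralocorticoid receptor (Nr3c2). The bound receptor enters the nucleus and occupies DNA elements made of paired half-sites, from which it raises transcription of its target genes. Astrocytes carry the receptor, and its known targets in these cells include regulators of fuel use, feedback inhibitors and transcription factors.

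RNA on the ribosomes of hippocampal astrocytes was sequenced from 11 female mice aged 12 to 14 months. There were 4 ERβ cKO (sham) mice, which lack estrogen receptor β (Esr2) in astrocytes through a floxed exon of Esr2, 4 WT (GDX) mice, whose ovaries had been removed in young adulthood, and 3 WT (sham) mice with sham surgery and intact Esr2. All 11 mice, controls included, carried the RiboTag allele, an HA-tagged form of the ribosomal protein gene Rpl22, and a Cre transgene driven by the mouse Gfap promoter, so the tag marks any cell in which that promoter has been active. Each library came from 1 mouse, and the study used the comparisons to ask how losing the receptor, or the ovaries, affects the astrocyte transcriptome at midlife.

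Libraries held between 16956233 and 18190968 counts. The astrocyte glutamate transporter Slc1a2 averaged 10110 CPM, a count scaled to a common library size, in ERβ cKO (sham), 12780 CPM in WT (GDX) and 10990 CPM in WT (sham). Neuron markers were also present, their 10 genes summing to 9448 to 11480, 9731 to 10250 and 9425 to 11250 CPM in the same order of groups. Esr2 had 0 to 4, 0 to 7 and 0 to 4 counts per library in ERβ cKO (sham), WT (GDX) and WT (sham) mice, so the deletion could not be read from it at this depth. In WT (sham) the 11 choroid plexus markers, such as Ttr, summed to more than in the other groups, with 50.4 to 58.9 CPM in ERβ cKO (sham), 43.3 to 53.5 CPM in WT (GDX) and 107 to 345 CPM in WT (sham).

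Promoter sequence is shown for the 3 genes that held a glucocorticoid receptor motif, to place the receptor's letters beside the expression values. RefSeq windows of 300 bases, 250 before and 50 from each transcript start (GRCm38.p6), were found for 9 of the 10 genes, 18 windows in all, and Zbtb16 had none. The half-site AGAACA, on either strand, lay in windows of 2 of the genes and in 19% of all 32851 windows. The full site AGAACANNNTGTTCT lay in 1 window of Sgk1 and in 0.00913% of all windows. A looser form, GNACANNNTGTNC, lay in Txnip and, overlapping the full site, in Sgk1, and in 0.475% of all windows. The motif of the FOXO factors, GTAAACA on either strand, lay in Txnip and Klf9 and in 3.65% of all windows. The windows follow, 5′ to 3′ on the strand of the gene, with half-sites, the looser site and the FOXO motif in capitals.
Sgk1, chr10:21993640-21993939, + strand: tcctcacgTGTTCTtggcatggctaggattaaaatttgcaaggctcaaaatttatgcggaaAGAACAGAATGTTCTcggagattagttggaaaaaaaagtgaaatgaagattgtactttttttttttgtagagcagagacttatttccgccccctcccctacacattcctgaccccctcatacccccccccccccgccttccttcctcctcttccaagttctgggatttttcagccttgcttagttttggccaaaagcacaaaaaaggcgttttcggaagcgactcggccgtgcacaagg
Txnip, chr3:96557707-96558006, + strand: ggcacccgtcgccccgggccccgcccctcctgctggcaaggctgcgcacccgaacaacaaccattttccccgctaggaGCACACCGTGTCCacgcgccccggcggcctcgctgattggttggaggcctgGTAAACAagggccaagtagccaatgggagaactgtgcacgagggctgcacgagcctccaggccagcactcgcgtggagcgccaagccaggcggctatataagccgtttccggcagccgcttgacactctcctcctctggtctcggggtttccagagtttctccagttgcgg
Tsc22d3, chrX:140600473-140600772, - strand: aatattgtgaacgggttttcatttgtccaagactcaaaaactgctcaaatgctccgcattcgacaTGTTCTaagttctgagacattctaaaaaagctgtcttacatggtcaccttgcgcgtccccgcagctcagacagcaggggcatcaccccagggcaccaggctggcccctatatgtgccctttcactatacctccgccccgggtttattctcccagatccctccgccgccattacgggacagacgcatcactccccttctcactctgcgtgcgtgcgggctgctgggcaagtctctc
In Sgk1 the full site began 189 bases before the start of this transcript, and a separate half-site began 242 bases before it. In Txnip the looser site began 172 bases and the FOXO motif 121 bases before the start. In Tsc22d3 a single half-site began 185 bases before the start. A match describes letters in the window only. In WT (GDX) over WT (sham) the log2 fold change was 0.20 for Sgk1, 0.81 for Txnip and 1.38 for Tsc22d3, and nothing is drawn from the motifs about these values.

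Per kilobase of exon, Klf9 and Tsc22d3 were the most abundant of the 10 genes in WT (sham), with means of 54.2 and 43.2 CPM per kilobase. Klf15 followed with 18.1, Zbtb16 with 13.4 and Errfi1 with 12.3 CPM per kilobase, and the mice overlapped between the last 2 genes. Fkbp5, Sgk1, Pdk4 and Txnip lay between 6.35 and 8.95 CPM per kilobase, and neighbours in that order overlapped. Cdkn1a was the lowest, at 1.96 CPM per kilobase. In WT (GDX) Tsc22d3 averaged 112 CPM per kilobase and stood above Klf9 at 69.3 CPM per kilobase in the group means. In ERβ cKO (sham) the same genes averaged 58.8 and 57.0 CPM per kilobase.

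Tsc22d3 encodes GILZ, a leucine zipper protein through which glucocorticoids restrain inflammatory signalling, and lies on the X chromosome (chrX:140539528-140600659, mm10, - strand). It had 233, 254, 291 and 243 CPM in the ERβ cKO (sham) mice F1, F3, F4 and F5, 531, 534, 581 and 304 CPM in the WT (GDX) mice F1 to F4, and 202, 185 and 175 CPM in the WT (sham) mice F1, F3 and F4. The 3 groups did not overlap, with WT (GDX) highest and WT (sham) lowest, and the lowest GDX mouse, F4, was close to the highest ERβ cKO mouse. The mean was 255 ± 25.4 CPM in ERβ cKO (sham), 488 ± 125 CPM in WT (GDX) and 187 ± 13.6 CPM in WT (sham) (SD, n = 4, 4 and 3). The log2 fold change was 1.38 (SE 0.23) for WT (GDX) over WT (sham), 2.60-fold, the largest of the 10 genes in that comparison.

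**Figure D1:**
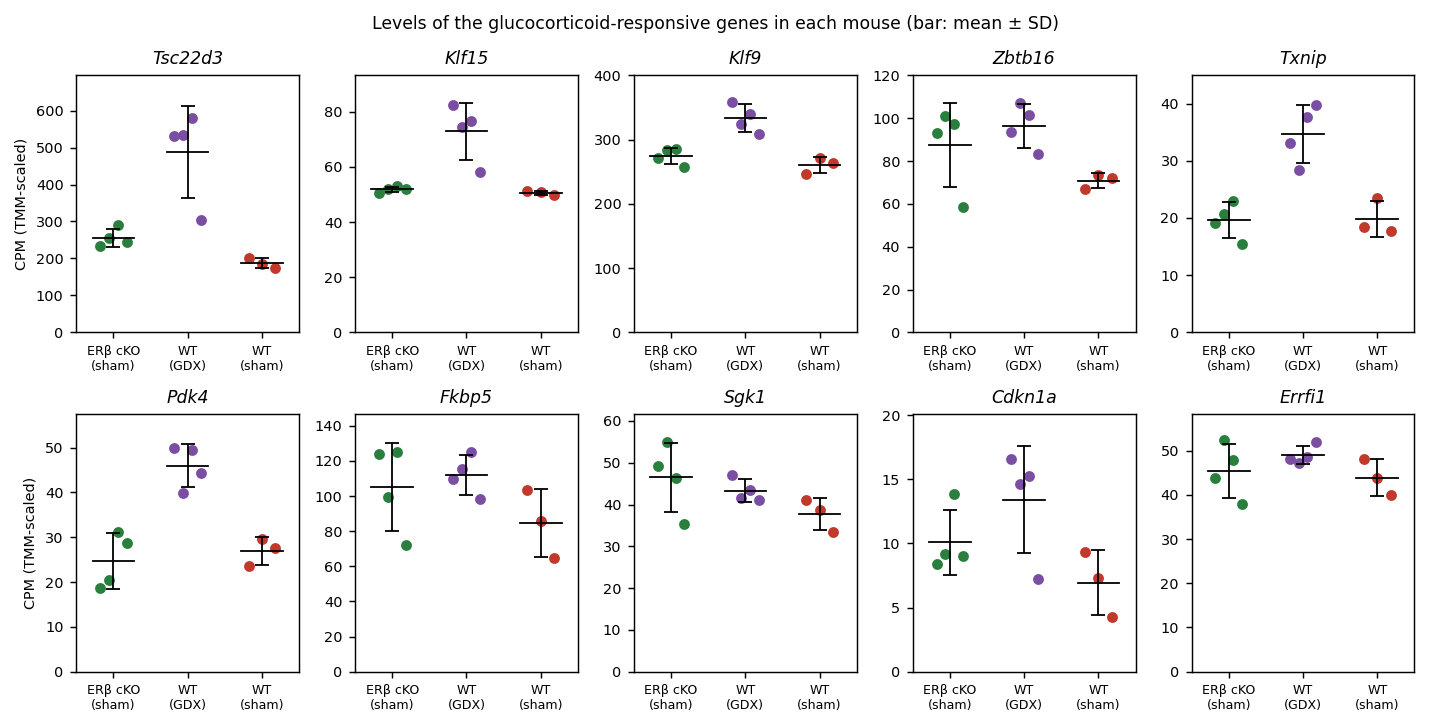
Each panel shows 1 gene, with TMM-scaled CPM on the vertical axis from 0 and 1 point per mouse for ERβ cKO (sham), WT (GDX) and WT (sham), and the line and bars give the mean ± SD. Tsc22d3 in WT (GDX) lies between 304 and 581 CPM, above all other mice, whereas for Errfi1 the 3 groups overlap.

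The members that are transcription factors are Klf15, Klf9 and Zbtb16. Klf15, a Krüppel-like factor that controls amino acid and glucose metabolism, had 50.6, 51.9, 52.9 and 52.0 CPM in ERβ cKO (sham), 82.4, 74.5, 76.7 and 58.3 CPM in WT (GDX), and 51.1, 50.8 and 49.7 CPM in WT (sham). All GDX mice were above all others, and the 7 mice with ovaries lay between 49.7 and 52.9 CPM. Klf9, a related factor induced by both steroid and thyroid hormones, had 272, 284, 285 and 258 CPM in ERβ cKO (sham), 359, 325, 340 and 309 CPM in WT (GDX), and 247, 272 and 264 CPM in WT (sham). Again the 4 GDX mice were the highest, although by a smaller factor than for Klf15. Zbtb16, which encodes the zinc finger repressor PLZF, had 92.9, 101, 97.6 and 58.5 CPM in ERβ cKO (sham), 93.7, 107, 102 and 83.5 CPM in WT (GDX), and 67.2, 73.7 and 71.9 CPM in WT (sham). Here 3 of the 4 ERβ cKO mice lay among the GDX mice, while F5 was the lowest of all 11 mice. For WT (GDX) over WT (sham) the log2 fold changes were 0.53 (SE 0.11) for Klf15, 0.35 (SE 0.09) for Klf9 and 0.44 (SE 0.10) for Zbtb16.

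Txnip and Pdk4 both limit the use of glucose. Txnip, an arrestin-like protein that binds thioredoxin and lowers glucose uptake, had 19.2, 20.7, 23.0 and 15.5 CPM in ERβ cKO (sham), 33.0, 28.3, 37.7 and 39.7 CPM in WT (GDX), and 18.4, 23.4 and 17.7 CPM in WT (sham). The GDX mice did not overlap either sham group, and the sham groups overlapped each other. Pdk4, a kinase that inhibits the pyruvate dehydrogenase complex and so keeps pyruvate out of the TCA cycle, had 18.6, 20.4, 31.2 and 28.8 CPM in ERβ cKO (sham), 49.9, 39.8, 49.5 and 44.4 CPM in WT (GDX), and 23.6, 29.6 and 27.6 CPM in WT (sham). Its GDX mice were again above all others, and ERβ cKO F1 and F3 were the lowest of the 11. The log2 fold change for WT (GDX) over WT (sham) was 0.81 (SE 0.14) for Txnip, a 1.75-fold difference, and 0.77 (SE 0.12) for Pdk4, a 1.70-fold difference.

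Fkbp5 and Sgk1 are common readouts of glucocorticoid exposure. Fkbp5, a co-chaperone that holds the receptor in a state of low hormone affinity, had 124, 99.6, 125 and 72.3 CPM in ERβ cKO (sham), 110, 115, 125 and 98.3 CPM in WT (GDX), and 103, 86.0 and 64.8 CPM in WT (sham). Its 3 groups overlapped. Sgk1, a kinase that acts on ion channels and transporters, had 49.3, 55.0, 46.3 and 35.3 CPM in ERβ cKO (sham), 47.1, 41.6, 43.5 and 41.1 CPM in WT (GDX), and 41.0, 38.6 and 33.5 CPM in WT (sham). The GDX and WT (sham) mice did not overlap, but only by the small gap between 41.1 CPM in GDX F4 and 41.0 CPM in sham F1, and the ERβ cKO mice spanned most of both ranges. The log2 fold change for WT (GDX) over WT (sham) was 0.40 (SE 0.13) for Fkbp5 and 0.20 (SE 0.11) for Sgk1.

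Cdkn1a and Errfi1 restrain growth. Cdkn1a, an inhibitor of cyclin-dependent kinases that p53 also induces, was the least counted member, with 73 to 296 counts per library. It had 8.37, 9.14, 13.8 and 8.99 CPM in ERβ cKO (sham), 16.6, 14.6, 15.3 and 7.26 CPM in WT (GDX), and 9.32, 7.28 and 4.25 CPM in WT (sham). GDX F1, F2 and F3 were the 3 highest mice, and GDX F4 lay among the WT (sham) mice. Errfi1, a feedback inhibitor of the epidermal growth factor receptor, had 43.9, 52.3, 47.8 and 37.9 CPM in ERβ cKO (sham), 48.0, 47.3, 48.6 and 51.9 CPM in WT (GDX), and 48.1, 43.7 and 39.9 CPM in WT (sham), with all groups overlapping. Errfi1 lies 1.46 Mb from Rpl22, the tagged locus, on the same chromosome (chr4:150853919-150868892, mm10, + strand), and the part of that linkage in its values was not tested. For WT (GDX) over WT (sham) the log2 fold change was 0.94 (SE 0.32) for Cdkn1a and 0.16 (SE 0.10) for Errfi1.

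Over the whole table, edgeR's quasi-likelihood test with Benjamini-Hochberg adjustment put 86 of 19695 tested genes past an adjusted p of 0.1 between WT (GDX) and WT (sham), 64 of them higher in WT (GDX). Of the 22 that were lower, 7 were choroid plexus markers. All 10 members passed the filter on low counts in each comparison. In WT (GDX) over WT (sham) 5 of the 10 members, Klf15, Klf9, Zbtb16, Txnip and Pdk4, were past the threshold and higher, against 0.325% of all tested genes. In 7 of the 10 all GDX mice were above all WT (sham) mice, against 5.09% of all tested genes. Since the members were selected on this contrast, these shares describe the choice and are not read further. The median log2 fold change of the 10 was 0.48, and that of all tested genes was -0.01. Tsc22d3 had the largest fold change and was not past the threshold with all 7 mice, but was past it without GDX F4, where its log2 fold change was 1.55. The number of members past it was 2 without GDX F1, GDX F3 or WT (sham) F3, 3 without GDX F2 and 7 without GDX F4, and Txnip and Pdk4 were past it whichever mouse was left out. Over all genes the number moved too. It was 40, 20 and 11 without GDX F1, GDX F3 and WT (sham) F3, 53 without GDX F2 and 140 without GDX F4.

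For ERβ cKO (sham) over WT (sham), which shares its 3 WT (sham) mice with the previous comparison, none of the 10 members was past the threshold, against 0.0301% of all tested genes, or 6 of 19938, in edgeR's quasi-likelihood test. The 3 of those 6 that were lower were all choroid plexus markers. Of the 10, 1 member was under an unadjusted p of 0.05 in edgeR's test, against 1062 of the 19938 tested genes. DESeq2 put 1 member, Tsc22d3, past the threshold, and 52 genes over the whole table. Tsc22d3 was also the 1 member of the 10 whose ERβ cKO mice were all above all WT (sham) mice, against 3.39% of all tested genes, with a log2 fold change of 0.45 (SE 0.12). The other log2 fold changes ran between -0.12 (SE 0.18) for Pdk4 and 0.54 (SE 0.26) for Cdkn1a, with Klf15 at 0.04 (SE 0.12) and Txnip at -0.02 (SE 0.17). Zbtb16, Fkbp5 and Sgk1 each lay between 0.30 and 0.31, with ERβ cKO F5 inside or below the WT (sham) range. The median of the 10 was 0.19, and that of all tested genes was 0.00.

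**Figure D2:**
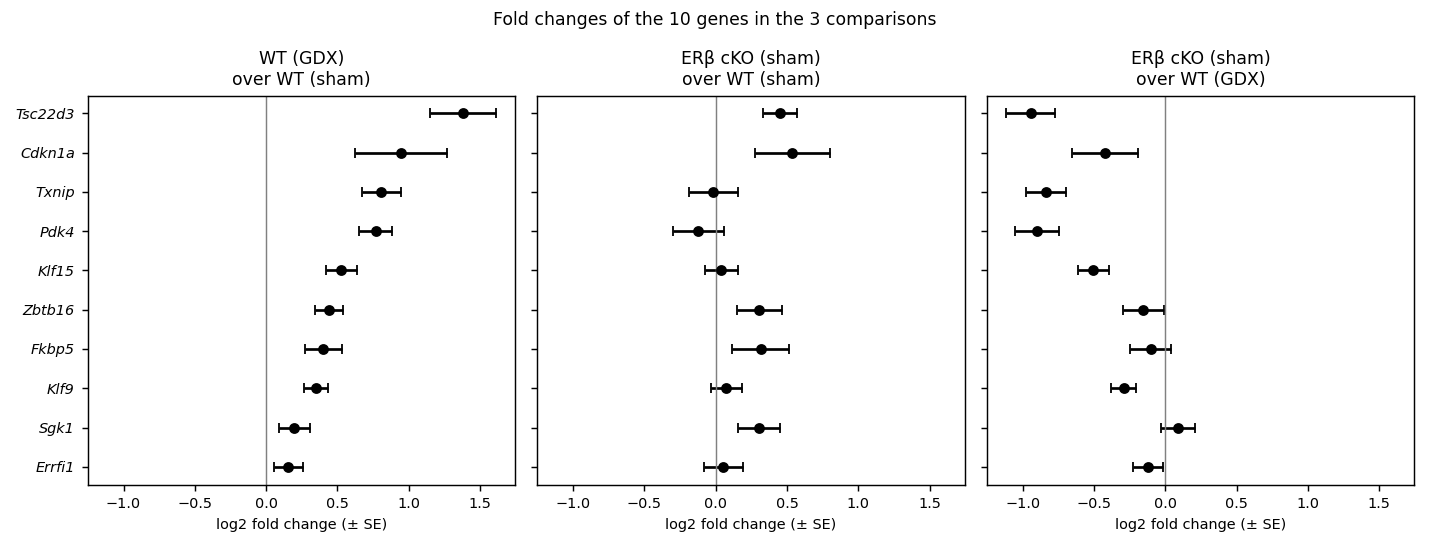
Points give the log2 fold change and bars the SE of the 10 genes, ordered down the page by WT (GDX) over WT (sham), with 1 panel for each comparison and a vertical line at 0. In WT (GDX) over WT (sham) the values run between 0.16 for Errfi1 and 1.38 for Tsc22d3, and in ERβ cKO (sham) over WT (GDX) 9 of the 10 are below 0.

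Set against WT (GDX), the ERβ cKO (sham) mice separated the 10 genes into those that were lower and those that were not. Tsc22d3 (log2 fold change -0.95, SE 0.17), Pdk4 (-0.90, SE 0.15), Txnip (-0.84, SE 0.14), Klf15 (-0.51, SE 0.11) and Klf9 (-0.29, SE 0.09) were past the threshold, 5 of 10 against 2.22% of all tested genes. The same 5 genes had all ERβ cKO mice below all GDX mice, against 4.88% of all tested genes. The members were selected on these same GDX libraries, so both counts describe the choice and are not read further. With the astrocyte marker mean described below as a covariate, none of the 10 was past the threshold in edgeR's test and the log2 fold change of Pdk4 was 0.064. Over all genes 1 was past it in that fit. The marker mean did not overlap between ERβ cKO (sham) and WT (GDX), so it and the group cannot be told apart. With the marker mean subtracted instead, Pdk4 stayed lower without overlap (-0.44). Zbtb16 (-0.16, SE 0.14), Fkbp5 (-0.10, SE 0.15), Cdkn1a (-0.42, SE 0.23), Errfi1 (-0.12, SE 0.11) and Sgk1 (0.09, SE 0.12) overlapped between these groups. No member was past the threshold and higher in ERβ cKO (sham), against 1.93% of all tested genes. Without ERβ cKO F3, GDX F1 or GDX F3 the number of members past it was 3. Over all genes the number was 192, 243 and 104 in these fits. The median log2 fold change of the 10 was -0.36, and that of all tested genes was 0.00.

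Individual mice moved several of the genes at once. GDX F4 was the lowest of its group for 7 of the 10 genes, among them Tsc22d3, Klf15 and Cdkn1a, and the highest of all 11 mice for Txnip. ERβ cKO F5 was the lowest of its group for 6 genes and ERβ cKO F4 the highest for 7. WT (sham) F4 was the lowest of its group for 7 genes and of all 11 mice for 5. This mouse also had the highest sums of its group for choroid plexus markers (345 CPM) and for endothelial and pericyte markers (221 CPM). Its 5 blood genes summed to 25.7 CPM, against 5.55 in F1 and 3.79 in F3. The mean of its 12 astrocyte markers was the highest of its group too, at 9.61 log2 CPM. The part of these in its member values was not tested. A GDX mouse held the highest value of the 11 for 8 genes, and ERβ cKO F3 held it for Sgk1 and Errfi1.

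**Figure D3:**
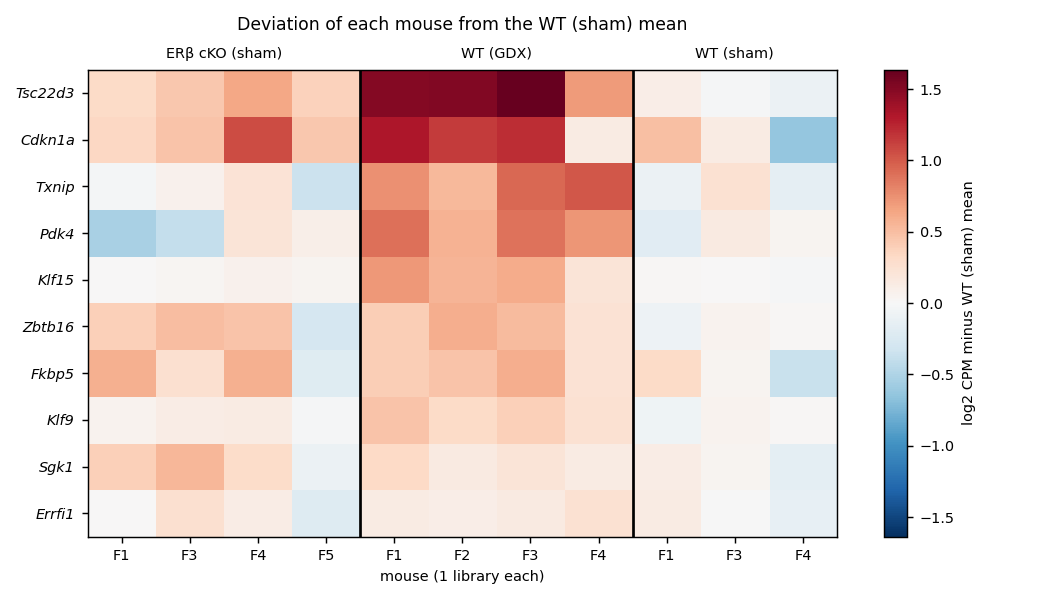
Each cell shows, by colour, the log2 CPM of 1 gene in 1 mouse minus the mean of the WT (sham) mice, with mice in columns by group and genes in rows. The Tsc22d3 row is darkest in GDX F1, F2 and F3, and GDX F4 is paler than these for Tsc22d3, Cdkn1a and Klf15 but not for Txnip.

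Astrocyte markers differed between the groups, most clearly in the comparisons with WT (GDX). The 12 astrocyte markers averaged 9.12 to 9.42 log2 CPM in the ERβ cKO (sham) mice, 9.71 to 9.88 in the WT (GDX) mice and 9.42 to 9.61 in the WT (sham) mice, and all 12 were counted in every library. In edgeR's quasi-likelihood test 2 of the 12 rose in WT (GDX) over WT (sham), the connexin gene Gjb6 (log2 fold change 0.55, adjusted p = 0.0112) and the calcium-binding protein gene S100b (0.43, adjusted p = 0.0334), and 9 of the 12 were lower in ERβ cKO (sham) than in WT (GDX). In bulk ribosome-bound RNA, fewer cells of a type and less RNA per cell cannot be told apart. When the astrocyte mean of each mouse was subtracted from the log2 CPM of each member, Tsc22d3 and Pdk4 remained without overlap between WT (GDX) and WT (sham), with differences of 1.08 and 0.51, and the median difference of the 10 was 0.22. On that scale ERβ cKO (sham) exceeded WT (sham) without overlap for Tsc22d3 (0.67), Klf15 (0.26) and Cdkn1a (0.80), and the median difference of the 10 was 0.39. In CPM both Klf15, with means of 51.8 and 50.5 CPM, and Cdkn1a overlapped between these groups. The subtracted mean lay mostly lower in ERβ cKO (sham), so these differences are not read as a rise of the members. Shares over all genes were not computed on this scale, and its counts of members are not read further. Against WT (GDX), ERβ cKO (sham) was lower without overlap for Pdk4 (-0.44), and the median difference was 0.15, positive where the median log2 fold change was -0.36. With the marker mean as a covariate, a fit chosen after seeing the data, none of the members was past the threshold in edgeR's test in WT (GDX) over WT (sham), and the log2 fold change of Tsc22d3 was 1.27 (SE 0.54). The marker mean itself did not overlap between these groups, so it and the group cannot be told apart.

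Markers of other cell types also differed between groups. The 12 endothelial and pericyte markers summed to 208 to 264 CPM in ERβ cKO (sham), 102 to 182 CPM in WT (GDX) and 101 to 221 CPM in WT (sham), and the ERβ cKO mice were all above the GDX mice. Abcb1a, a drug and steroid efflux pump of vessel walls that was named after its values were seen, was also higher in ERβ cKO (sham) than in WT (GDX) by edgeR's quasi-likelihood test (log2 fold change 1.05, SE 0.26, adjusted p = 0.0653). The 5 markers of oligodendrocyte precursors summed to 55.9 to 133 CPM in ERβ cKO (sham), 46.8 to 81.9 CPM in WT (GDX) and 44.3 to 54.0 CPM in WT (sham), and 2 of them, Cspg4 (0.63, adjusted p = 0.0539) and Vcan (0.72, adjusted p = 0.0445), were higher in ERβ cKO (sham) than in WT (GDX) by edgeR's test. The 8 ependymal markers summed to 22.9 to 45.6 CPM in ERβ cKO (sham), 22.1 to 43.9 CPM in WT (GDX) and 55.3 to 61.4 CPM in WT (sham), and 1 of them, Drc7, was lower in WT (GDX) than in WT (sham) by edgeR's test (-2.04, adjusted p = 0.0276). These 3 genes were named after their values were seen. The 8 microglial markers summed to 47.2 to 63.5, 50.8 to 57.6 and 49.0 to 60.1 CPM in the same order of groups. The 9 immediate early genes, which dissection and handling can induce, summed to 302 to 366 CPM in ERβ cKO (sham), 312 to 401 CPM in WT (GDX) and 335 to 394 CPM in WT (sham), and none was past the threshold in any comparison. The part of these markers, and of the choroid plexus markers above, in the members' values was not tested.

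The corticosteroid receptors themselves did not separate the groups. The glucocorticoid receptor gene Nr3c1 averaged 126 ± 16.7 CPM in ERβ cKO (sham), 140 ± 8.70 CPM in WT (GDX) and 138 ± 21.1 CPM in WT (sham), and the mineralocorticoid receptor gene Nr3c2 averaged 186, 187 and 188 CPM in the same order of groups. Hsd11b1, the enzyme that regenerates active glucocorticoid inside cells, had 63.2, 55.1, 72.0 and 101 CPM in ERβ cKO (sham), 124, 97.8, 125 and 89.1 CPM in WT (GDX), and 77.0, 74.0 and 79.6 CPM in WT (sham). It rose in WT (GDX) over WT (sham) by edgeR's quasi-likelihood test (log2 fold change 0.50, SE 0.11, adjusted p = 0.0573), and all 4 GDX mice were above the 3 WT (sham) mice. Without GDX F1, GDX F3, WT (sham) F1 or WT (sham) F3 it was not past the threshold, at log2 fold changes of 0.43 to 0.51. Hsd11b2, the enzyme that inactivates glucocorticoid, had 0 to 4 counts per library in ERβ cKO (sham), 0 to 3 in WT (GDX) and 0 to 4 in WT (sham). Hsd11b1 was the only 1 of the 17 tested receptor, chaperone, cofactor and transporter genes past the threshold in that comparison, and it was also the 1 gene under an unadjusted p of 0.05. The corepressor gene Ncor1 (-0.15, adjusted p = 0.729) and the co-chaperone gene Ptges3 (0.18, adjusted p = 0.77) were not past the threshold in edgeR's test. None passed in ERβ cKO (sham) over WT (sham) in edgeR's test, where 1 was under an unadjusted p of 0.05.

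Of 22 other genes known to respond to glucocorticoids, 4 rose in WT (GDX) over WT (sham) by edgeR's quasi-likelihood test and none fell. Over all tested genes 0.325% rose past that threshold. This list too was chosen with earlier results of these data known, so its counts are a description. Mt2, a metallothionein that binds zinc, had 452, 454, 471 and 361 CPM in WT (GDX) and 269, 247 and 284 CPM in WT (sham). Its log2 fold change was 0.70 (SE 0.10, adjusted p = 0.000788 by edgeR's test), and its GDX mice were all above its WT (sham) mice. GDX F4 was again the lowest of its group. The others were Fam107a, a stress-induced actin-binding protein (0.47, adjusted p = 0.0276), Mt1, the neighbouring metallothionein (0.43, adjusted p = 0.0478), and Glul, the glutamine synthetase of astrocytes (0.43, adjusted p = 0.0496), by edgeR's test. Glul and Fam107a are abundant in astrocytes, at 8978 and 2459 CPM in WT (GDX), and their values moved beside the astrocyte markers above. Of the 22, 13 were under an unadjusted p of 0.05 in edgeR's test, against 1571 of all 19695 tested genes. A positive log2 fold change was found for 17, against 9580 of all tested genes. The median was 0.32, and that of all tested genes was -0.01. Leaving out GDX F3 or WT (sham) F3 lowered the number past the threshold to 1, Mt2, and leaving out GDX F4 raised it to 9. Over all genes the number was 20, 11 and 140 in these fits. Per1, a clock gene (-0.02, adjusted p = 0.983), and Dusp1, a phosphatase of MAP kinases (-0.27, adjusted p = 0.72), were not past the threshold in edgeR's test. Both were named after their values were seen, and they do not stand for fast responders as a class.

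**Figure D4:**
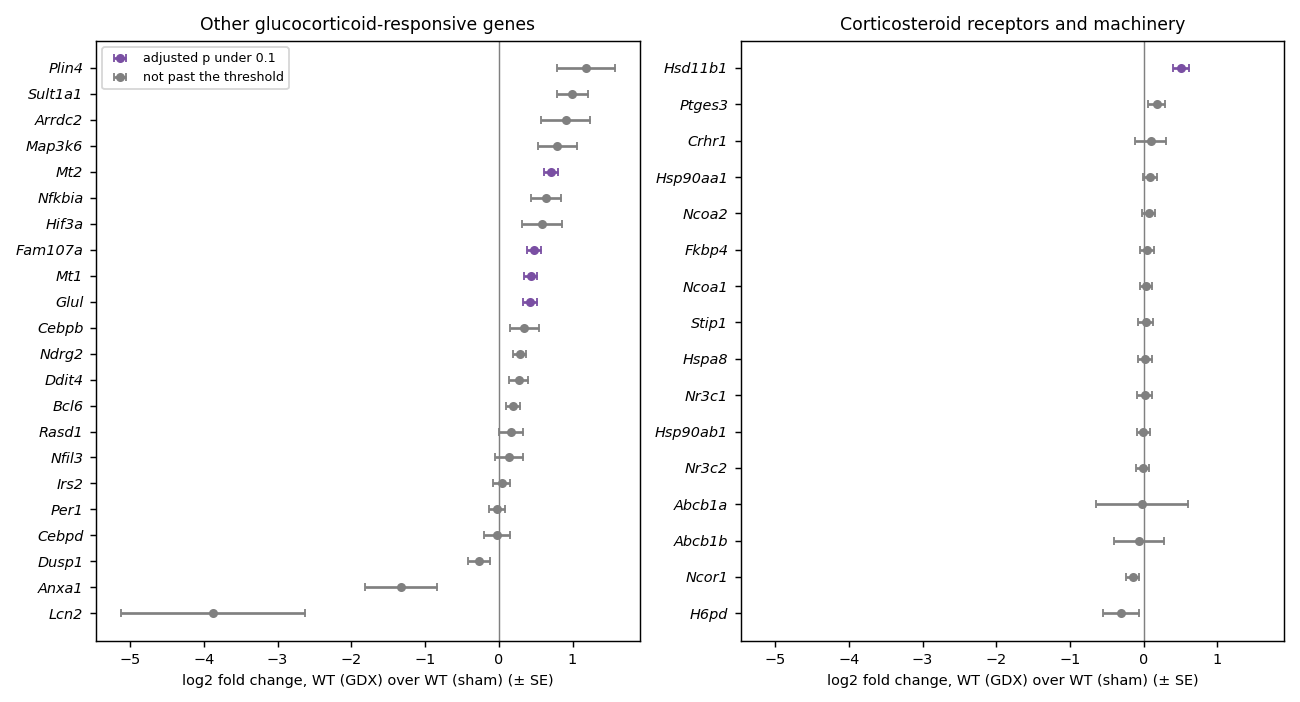
Points give the log2 fold change and bars the SE for WT (GDX) over WT (sham), for 22 other glucocorticoid-responsive genes on the left and 16 of the 17 tested genes of the receptors and their machinery on the right, with genes past an adjusted p of 0.1 in purple. The 5 purple points are Mt2, Fam107a, Mt1, Glul and Hsd11b1, between 0.43 and 0.70, and Lcn2 at the far left rests on 0 to 14 counts per library.

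Between ERβ cKO (sham) and WT (sham) none of the 22 was past the threshold in edgeR's test. There 6 were under an unadjusted p of 0.05, against 1062 of all 19938 tested genes. Against WT (GDX), 6 of 21 tested were lower in ERβ cKO (sham) and none was higher by edgeR's quasi-likelihood test. Lower and past the threshold were also 2.22% of all tested genes and 9 of the 12 astrocyte markers. Mt2 fell (log2 fold change -0.81, SE 0.12, adjusted p = 0.00802), as did Glul (-0.59, adjusted p = 0.0168), Mt1 (-0.72, adjusted p = 0.02) and Fam107a (-0.63, adjusted p = 0.0272) in edgeR's test. The other 2 were Sult1a1, a sulfotransferase (-0.89, adjusted p = 0.0395), and Ddit4, an inhibitor of mTOR signalling (-0.44, adjusted p = 0.0431), named after their values were seen. Leaving out GDX F3 lowered the number to 3, and the number over all genes from 820 to 104. All 6 had every ERβ cKO mouse below every GDX mouse, against 4.88% of all tested genes. Being picked as past the threshold favours that, so it is not read further.

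Close relatives of the members were mostly not past the threshold. Of 15 paralogs, Tsc22d4, a relative of Tsc22d3, rose in WT (GDX) over WT (sham) by edgeR's quasi-likelihood test (log2 fold change 0.38, SE 0.09, adjusted p = 0.06), with a mean of 204 ± 13.4 CPM in WT (GDX) and 157 ± 4.80 CPM in WT (sham). Without GDX F1, F2 or F3 or WT (sham) F3 it was not past the threshold, at log2 fold changes of 0.36 to 0.37. The next by p were Pdk2, a second pyruvate dehydrogenase kinase (0.32, adjusted p = 0.166), and the kinase inhibitors Cdkn1b (0.32, adjusted p = 0.23) and Cdkn1c (-1.21, adjusted p = 0.503). Both Pdk2 (-0.37, adjusted p = 0.0876) and Cdkn1b (-0.36, adjusted p = 0.0923) were lower in ERβ cKO (sham) than in WT (GDX) by edgeR's test. None of the 15 was past the threshold in ERβ cKO (sham) over WT (sham), and none was under an unadjusted p of 0.05.

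Several members answer to other signals too, and the genes of those pathways are given for comparison. Of 13 FOXO and fasting genes none was past the threshold in WT (GDX) over WT (sham) in edgeR's test, 2 were under an unadjusted p of 0.05, all 13 had a positive log2 fold change, and the median was 0.16. Over all 19695 tested genes 1571 were under that p and 9580 were positive. Of the 12 astrocyte markers 11 were positive, with a median of 0.22. Among the 13 the smallest p were those of Sesn1, a stress-induced regulator of mTOR (0.28, adjusted p = 0.315), and of the transcription factor Foxo3 (0.22, adjusted p = 0.563). Of 11 targets of p53, the pathway that also induces Cdkn1a, none was past the threshold and 2 were under an unadjusted p of 0.05, Trp53inp1 (0.53, adjusted p = 0.207) and Ccng1 (0.33, adjusted p = 0.23) having the smallest. Of 15 clock genes none passed and 2 were under an unadjusted p of 0.05, led by Hlf (0.20, adjusted p = 0.567) and Arntl (-0.29, adjusted p = 0.617) in edgeR's test. The 21 binding partners, substrates and other functionally related genes of the members had none past the threshold and 2 under an unadjusted p of 0.05. Prodh, a proline dehydrogenase listed as functionally related, had the smallest p in edgeR's test (0.32, adjusted p = 0.236). None of these 4 lists held a gene past the threshold in ERβ cKO (sham) over WT (sham) in edgeR's test. Between ERβ cKO (sham) and WT (GDX), 1 of the 13 FOXO and fasting genes was past the threshold and lower in edgeR's test. Of the 13, 12 had a negative log2 fold change, and the median was -0.26. Under an unadjusted p of 0.05 were 8, against 3393 of all 19759 tested genes. All 12 astrocyte markers were also under it and negative, with a median of -0.46. The p53 target Ccng1 (-0.42, adjusted p = 0.0694) was lower and the clock gene Per2 (0.50, adjusted p = 0.0824) was higher by edgeR's quasi-likelihood test, and Per2 was named after its values were seen.

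The genes whose levels across the 11 mice were most like the mean of the 10 members were found among 13265 genes with at least 50 counts on average, by Pearson's correlation with the members' mean z-score. They were Mc4r, a melanocortin receptor (r = 0.957), Rhob, a small GTPase (r = 0.94), D10Wsu102e (r = 0.92), Nrros (r = 0.916) and Ccdc6 (r = 0.909). After the mean of each group was subtracted, the closest were Lats2, a kinase of the Hippo pathway (r = 0.975), Mir22hg (r = 0.968), Lsm11 (r = 0.951), Dcdc2a (r = 0.939) and 0610010F05Rik (r = 0.92). These are descriptions over mice that share libraries and depth with the members, the genes being picked for the highest values, and carry no test.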

How the data were processed

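HA-tagged ribosomes were immunoprecipitated from hippocampi, and stranded libraries were sequenced as single-end reads. Per the labels and methods, the authors demultiplexed with bcl2fastq 2.17, checked reads with FastQC, cleaned them using Trimmomatic, and used QuasR to map reads to mm10 and to count per gene. The authors deposited raw counts per Ensembl gene, not normalized. The versions of Trimmomatic and QuasR, the strand setting, the treatment of multiply mapped reads, any batch and the hour of collection are, in the sources used here, not given. Overlapping and antisense genes are therefore uncertain.

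Groups came from the sample labels. Names and places came from GENCODE M21, which held 37607 of 39017 identifiers, and the identifiers without a name held 0.515% of counts. Each comparison left out genes that had a count under 1 in over 3 of its samples, and counts were scaled by TMM, and edgeR's robust quasi-likelihood test was run over all remaining genes, with Benjamini-Hochberg adjustment and a threshold of 0.1 (edgeR 4.0.16, limma 3.58.1, DESeq2 1.42.0, R 4.3.3). The steps were tested on simulated data. CPM is TMM-scaled, log2 CPM adds 0.5, and fold changes are edgeR's. The median library held 17685486 counts, which limits precision for low genes such as Esr2 and Hsd11b2. The members and all gene lists were chosen with earlier results of these data known. Named genes were the 10 members, the receptors, Hsd11b1, Esr1, Esr2 and Rpl22, up to 4 genes of each related list with the smallest p in WT (GDX) over WT (sham), and the 5 genes most like the members by each correlation; others are said to be named after their values were seen, and a few genes are not reported here. Esr1 averaged 4.91, 5.76 and 6.00 CPM and Rpl22 79.6, 76.8 and 68.8 CPM in ERβ cKO (sham), WT (GDX) and WT (sham). Alternatives were other normalizations, filters and thresholds, DESeq2, all groups in a single fit, a replicate block, each mouse left out, and, chosen after seeing the data, an astrocyte marker covariate.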

Additional observations from a re-analysis of the deposited data

Results flagged for a closer look

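Each member was examined for a mouse far from the other mice of its group in the 2 groups of 4, on log2 CPM, as the gap to the nearest mouse over the range of the group, against Dixon's critical value for 4 samples at the usual confidence level. Of 20 such groups, 3 exceeded it, and chance alone passes about 1 in 20. In WT (GDX), F4 stood below the others for Tsc22d3 with a ratio of 0.861 and for Cdkn1a with a ratio of 0.846. In ERβ cKO (sham), F5 stood below the others for Zbtb16 with a ratio of 0.85.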

How the results depend on the processing

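Over all genes, ERβ cKO (sham) over WT (sham) had 6 such genes, against 39 with no filter, 52 with DESeq2, 16 with all 3 groups in 1 fit and 3 with the astrocyte marker covariate. WT (GDX) over WT (sham) had 86, against 289 with no filter, 53 with filterByExpr, 206 with DESeq2, 25 with all 3 groups in 1 fit, 36 at an adjusted p under 0.05 and 5 with the covariate. ERβ cKO (sham) over WT (GDX) had 820, against 1628 with DESeq2, 229 at an adjusted p under 0.05 and 1 with the covariate.

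Of the 10 members, 5 were past the threshold in WT (GDX) over WT (sham), against 8 with no filter, 3 at an adjusted p under 0.05 and 0 with the covariate. In ERβ cKO (sham) over WT (sham) DESeq2 gave 1 in place of 0, and in ERβ cKO (sham) over WT (GDX) the covariate gave 0 in place of 5. Of the 22 other glucocorticoid-responsive genes, 4 were past it in WT (GDX) over WT (sham), against 8 with no filter, 2 with all 3 groups in 1 fit and 0 with the covariate, and in ERβ cKO (sham) over WT (GDX) the covariate gave 0 in place of 6. There the log2 fold changes of Pdk4 (0.064), Fam107a (0.193), Mt1 (0.029) and Glul (0.02) turned positive with the covariate, which did not overlap between those groups. In WT (GDX) over WT (sham) Klf9 was not past the threshold with DESeq2 size factors, library size alone, filterByExpr, the filter over all 11 libraries or all 3 groups in 1 fit, whereas Tsc22d3 was past it with no filter, DESeq2 and all 3 groups in 1 fit. The cause of these changes was not tested.

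Leaving out each mouse in turn gave 2 to 7 members past the threshold in WT (GDX) over WT (sham), 2 without GDX F1, GDX F3 or sham F3, 3 without GDX F2 and 7 without GDX F4, and Txnip and Pdk4 were past it each time. It gave 0 to 0 members in ERβ cKO (sham) over WT (sham) and 3 to 5 in ERβ cKO (sham) over WT (GDX), 3 without cKO F3, GDX F1 or GDX F3. The other glucocorticoid-responsive genes numbered 1 to 9 in WT (GDX) over WT (sham), 1 without GDX F3 or sham F3 and 9 without GDX F4, then 0 to 1 in ERβ cKO (sham) over WT (sham), 1 without cKO F5, and 3 to 8 in ERβ cKO (sham) over WT (GDX). Over all genes the counts were 11 (without sham F3) to 275 (without sham F4) in WT (GDX) over WT (sham), 7 (without sham F3) to 67 (without sham F4) in ERβ cKO (sham) over WT (sham), and 104 (without GDX F3) to 2450 (without cKO F5) in ERβ cKO (sham) over WT (GDX).

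The labels do not say whether a mouse number links mice of different groups, and the main fits did not pair them. Deviations of same-numbered mice correlated between -0.353 and 0.247, and so few mice share a number that this cannot settle it. With the number as a replicate block, 76 genes in ERβ cKO (sham) over WT (sham) and 3117 in ERβ cKO (sham) over WT (GDX) were past the threshold, and 2 of the other glucocorticoid-responsive genes were past it in ERβ cKO (sham) over WT (sham). In WT (GDX) over WT (sham) the block kept the number of members at 5, with Tsc22d3 and Cdkn1a past the threshold and Klf9 and Zbtb16 not.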
